A study of Arabidopsis thaliana with 30 samples.

Results

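The part of the warm response that depends on PIF factors was measured as the interaction of genotype and temperature in Arabidopsis seedlings. It is the change of a transcript from 21 to 27 °C in the mutant pif457 minus the same change in wild-type Col-0. It rests on 12 of the 30 libraries of the series, 3 for each of the groups Col-0 at 21 °C, Col-0 at 27 °C, pif457 at 21 °C and pif457 at 27 °C. Of the 25300 genes in the table, 21780 had at least 1 CPM (the reads of a gene scaled to a common library total) in 3 or more of the 30 libraries and were tested. Whole seedlings, 4 d old, had been stratified for 5 d at 4 °C, kept in continuous red light of 50 µmol per square metre and second for 2 d at 21 °C, then for 2 d at 21 or 27 °C, and collected at 96 h for poly(A) RNA sequencing. The line pif457 carries mutations in PIF4, PIF5 and PIF7, whose positions are not given in the sources used here, and the comparison asks which warm-regulated genes need these factors.

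PIFs are bHLH transcription factors that bind the photoreceptor phytochrome B, which also senses temperature. Red light and coolness keep phytochrome B active and the PIFs in check, while warmth and shade release them. They then bind G-box and related E-box motifs near growth genes, among them auxin synthesis genes, and the hypocotyl elongates. Several PIFs also repress genes of chlorophyll synthesis and light harvesting in dark-grown seedlings.

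Gene levels are in CPM. Log2 values are fitted changes on log2(CPM + 0.5) from which the change of the median gene was subtracted, ± the standard error of the fit (n = 3 per group), because the median gene itself moved by −0.25 in the interaction, by 0.27 in Col-0 and by 0.01 in pif457. The adjusted p is from limma, over all tested genes and before that subtraction. A gene is called more negative or more positive in pif457, or higher or lower at 27 °C, only where the adjusted p was under 0.05 in 2 fits, one on CPM as deposited and one after median-of-ratios scaling. Where 2 values of adjusted p are given for a gene, they are in that order. An omission is a repeat of both fits without 1 of the 12 libraries. The labels give separate samples without naming their cultures, so p-values measure the spread among these samples.

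The 12 libraries held 19629037 to 27079748 counted reads. The share of reads on chloroplast genes was 2.56 to 5.37% in Col-0 at 21 °C and 2.04 to 2.42% at 27 °C. In pif457 it was 0.444 to 0.97% at 21 °C and 0.161 to 0.345% at 27 °C, so it was lower in the warm in both genotypes. Root hair markers, whose 10 members all had reads, summed to between 17.62 and 195.5 CPM in Col-0 at 21 °C, with the highest sum in replicate 3, to between 37.1 and 46.6 CPM in Col-0 at 27 °C, to between 69.1 and 170.8 CPM in pif457 at 21 °C, and to between 10.5 and 101.6 CPM in pif457 at 27 °C. In the interaction 9 of the 10 lay below the median gene (median −0.46) and none was called, and their part in the more negative calls was not tested. The 11 stomatal lineage markers summed to between 145.7 and 156.1 CPM in Col-0 at 21 °C and to between 117.4 and 126.6 CPM at 27 °C. In pif457 they summed to between 160.5 and 177 CPM and to between 123 and 133.5 CPM. The sums were thus lower in the warm in both genotypes, and none of the 11 was called in the interaction (median 0.05). Fewer cells of a type and less RNA per cell cannot be told apart in whole seedlings.

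PIF4, a bHLH factor of warm-induced growth, stood at 22.1, 40.4 and 20.5 CPM in Col-0 at 21 °C and at 88.8, 112 and 79.1 CPM at 27 °C. In pif457 it stood at 14.7, 12.9 and 12.6 CPM at 21 °C and at 54.9, 56 and 51.8 CPM at 27 °C. Its transcript was below every Col-0 library of the same temperature and still rose with warmth in the mutant (1.97 ± 0.23, adjusted p = 5.93e-07 in limma), so PIF4 reads were still counted in the mutant. PIF5 stood at 44.9 to 73.2 CPM in Col-0 at 21 °C and at 3.74 to 6.27 CPM in pif457 at 21 °C, and at 27 °C at 95.9 to 110 and 11.2 to 11.8 CPM. PIF7, the family member known for rapid warm responses, stood at 10 to 14.8 CPM over the Col-0 libraries and at 0.565 to 1.92 CPM over those of pif457. The groups of Col-0 and pif457 did not overlap at either temperature for any of the 3 genes, and pif457 was the lower. The label pif457 names the mutated genes and states no transcript level. None of the 8 tested PIF and PIL genes was called in the interaction.

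In all, 223 genes were called in the interaction, or 1.02% of those tested. Of these, 174 (0.799% of all tested genes) had a more negative warm change in pif457 and 49 (0.225%) a more positive one. With the deposited totals alone 606 genes were called (2.78%), 53 more positive and 553 more negative, and after median-of-ratios scaling alone 297 were, 123 more positive and 174 more negative. The more negative genes had a median interaction of −1.37 (−3.75 to −0.60), with median changes of 0.83 in Col-0 and −0.38 in pif457. The more positive genes had a median of 1.18 (0.77 to 2.49), with median changes of −0.41 in Col-0 and 0.68 in pif457. These changes share their libraries with the interaction and describe it.

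The 223 calls fall into a few patterns. Among the 174 more negative genes, 103 were called higher at 27 °C in Col-0 and not called in pif457, and in 80 of these the Col-0 libraries of the 2 temperatures did not overlap while those of pif457 did. Another 54 were not called in Col-0 and were called lower at 27 °C in pif457, and 10 were called higher in Col-0 and lower in pif457. Among the 49 more positive genes, 29 were not called in Col-0 and were called higher in pif457, and 14 were called lower in Col-0 and not called in pif457. For comparison, 8.54% of all tested genes were called higher and 4.63% lower at 27 °C in Col-0, and 7.46% higher and 7.65% lower in pif457. A gene called in one genotype only is counted here by its interaction, which is the test of that difference.

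Leaving out a library lowered the number of genes called from 223 to between 105, without replicate 3 of pif457 at 21 °C, and 214, except that it was 285 without replicate 3 of Col-0 at 21 °C. The count moved by more than 1.5 times also without replicate 2 of Col-0 at 21 °C (107), replicates 1 (141) and 2 (123) of Col-0 at 27 °C, and replicates 1 (118) and 3 (117) of pif457 at 27 °C. Of the 223 genes, 73 stayed called in all 12 omissions, 63 more negative and 10 more positive.

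**Figure D1:**
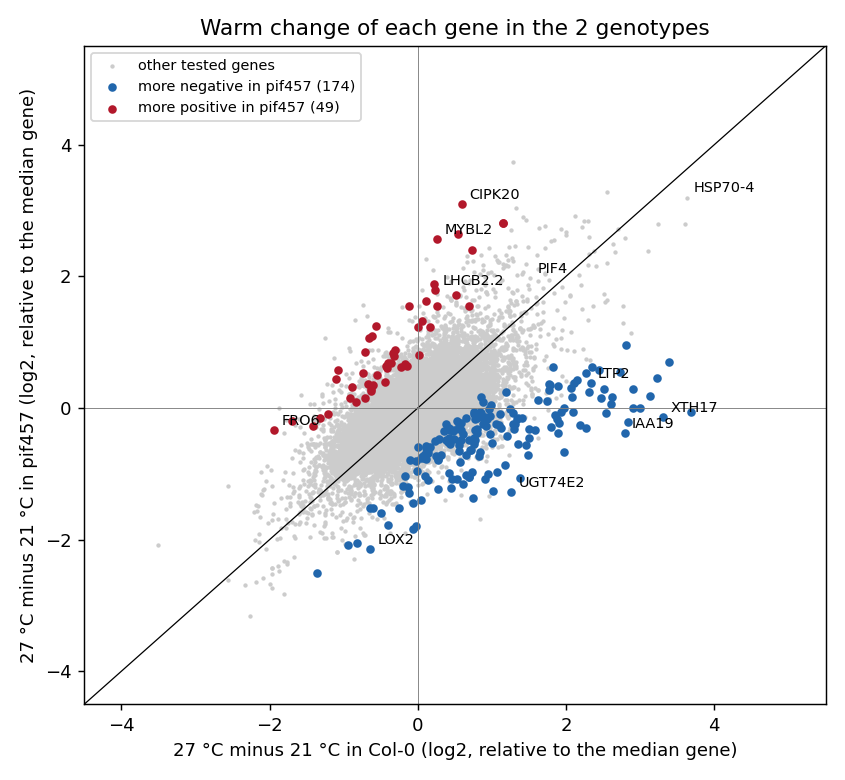
Warm change in Col-0 (x axis) against that in pif457 (y axis), both as log2 relative to the median gene, for 21780 tested genes, with equal changes on the diagonal. The 174 more negative genes (blue) lie below the diagonal, many near 0 in pif457, the 49 more positive genes (red) lie above it, and HSP70-4 lies close to it at 3.625 and 3.197.

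**Figure D2:**
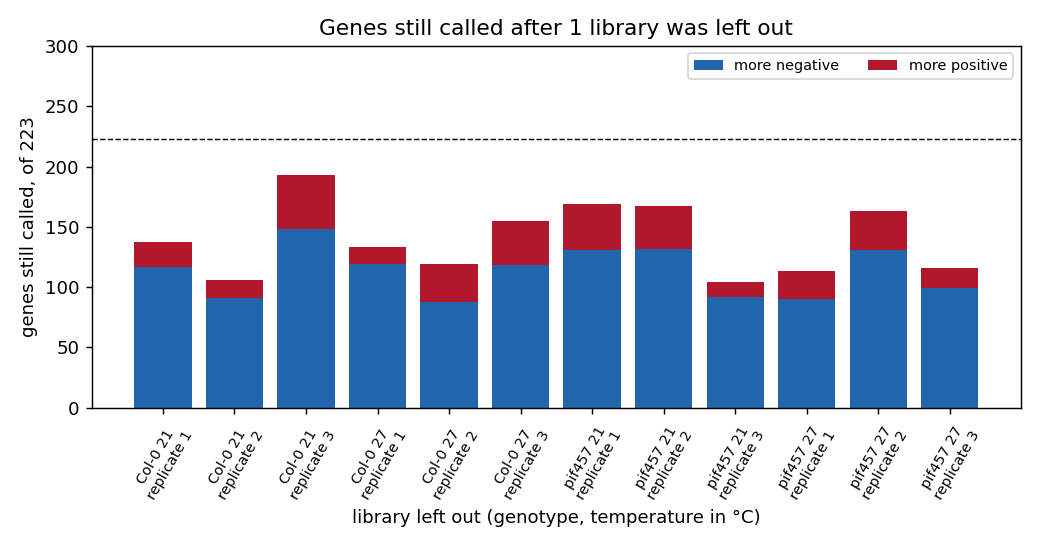
Number of the 223 genes that were still called in the same direction after the library on the x axis was left out, split into more negative (blue) and more positive (red), with the dashed line at 223. The bars run from 104 without replicate 3 of pif457 at 21 °C to 193 without replicate 3 of Col-0 at 21 °C.

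The start regions of 7 genes are shown first, because they carry the E-box motifs that PIFs are known to bind and belong to genes that the following paragraphs describe. Each is the 250 bases before the gene start on the gene's own strand, 5′ to 3′, taken by locus from the RefSeq annotation of TAIR10.1, since the table gives no coordinates. Capitals mark the G-box CACGTG and the PBE-box CACATG, the latter read on either strand and so also as CATGTG. IAA19 (chr3:5263751-5264000, plus strand), IAA6 (chr1:19673653-19673902, minus), SAUR19 (chr5:5963406-5963655, minus), SAUR22 (chr5:5975088-5975337, minus) and YUC8 (chr4:14192319-14192568, plus) belong to the auxin group. AT1G44446, chlorophyllide a oxygenase (chr1:16851272-16851521, minus), and AT3G12320 (chr3:3923265-3923514, plus), an uncharacterized protein in the annotation, had a more positive warm change in pif457.
IAA19: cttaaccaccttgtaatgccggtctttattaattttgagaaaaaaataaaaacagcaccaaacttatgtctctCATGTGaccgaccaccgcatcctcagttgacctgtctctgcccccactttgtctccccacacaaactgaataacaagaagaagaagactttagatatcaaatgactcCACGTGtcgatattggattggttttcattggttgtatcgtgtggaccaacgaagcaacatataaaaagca
IAA6: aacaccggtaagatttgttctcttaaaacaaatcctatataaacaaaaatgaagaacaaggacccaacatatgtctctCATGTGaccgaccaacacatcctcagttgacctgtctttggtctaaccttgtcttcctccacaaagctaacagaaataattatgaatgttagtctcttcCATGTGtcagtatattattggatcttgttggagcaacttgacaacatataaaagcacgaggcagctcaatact
SAUR19: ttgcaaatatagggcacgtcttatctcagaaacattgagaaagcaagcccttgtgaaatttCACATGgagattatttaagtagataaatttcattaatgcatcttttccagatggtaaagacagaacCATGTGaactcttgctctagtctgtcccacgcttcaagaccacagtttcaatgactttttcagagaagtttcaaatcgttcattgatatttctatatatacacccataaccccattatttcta
SAUR22: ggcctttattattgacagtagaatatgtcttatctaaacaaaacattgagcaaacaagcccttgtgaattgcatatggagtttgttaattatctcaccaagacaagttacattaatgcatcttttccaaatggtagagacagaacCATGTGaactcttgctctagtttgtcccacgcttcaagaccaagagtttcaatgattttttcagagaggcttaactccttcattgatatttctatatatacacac
YUC8: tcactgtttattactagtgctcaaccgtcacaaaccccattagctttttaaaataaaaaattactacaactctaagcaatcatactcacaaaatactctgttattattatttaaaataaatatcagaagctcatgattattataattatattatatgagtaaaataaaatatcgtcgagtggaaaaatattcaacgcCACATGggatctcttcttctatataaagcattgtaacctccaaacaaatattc
AT1G44446: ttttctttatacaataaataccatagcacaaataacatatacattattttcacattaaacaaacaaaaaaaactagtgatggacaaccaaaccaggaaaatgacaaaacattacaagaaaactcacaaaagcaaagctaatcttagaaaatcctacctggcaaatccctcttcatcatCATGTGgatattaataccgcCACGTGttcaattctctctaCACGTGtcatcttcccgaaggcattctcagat
AT3G12320: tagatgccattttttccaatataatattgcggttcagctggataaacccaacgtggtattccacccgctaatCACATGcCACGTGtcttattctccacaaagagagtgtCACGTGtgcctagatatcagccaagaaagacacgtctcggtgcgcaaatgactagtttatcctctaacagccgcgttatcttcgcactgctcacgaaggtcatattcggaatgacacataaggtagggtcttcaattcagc

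In IAA19 the G-box began 70 bases and the PBE-box 177 bases before the gene start. The windows of IAA19 and IAA6, which encode related repressors, share an unbroken run of 23 bases around that PBE-box, and those of SAUR19 and SAUR22 share 30 bases around theirs. YUC8 has 1 PBE-box, 53 bases before its start. In AT1G44446 the G-boxes began 52 and 32 bases before the start, and in AT3G12320 171 and 141 bases. Over all 21615 windows of tested genes that could be read, 6.99% held a G-box and 11.1% a PBE-box. A G-box was found in 18 of the 174 more negative genes (10.3%) and in 8 of the 49 more positive genes (16.3%). A PBE-box was found in 44 of the more negative genes (25.3%) and in 10 of the more positive ones (20.4%). The auxin response element TGTCTC, searched likewise on both strands, stood in 17.2% and 12.2% of the windows of these groups and in 10.9% of all windows. The I-box GATAAG, found in light-regulated promoters, stood in 10.3% and 22.4%, and in 12.6% of all windows. The evening element stood in 8.62% and 8.16%, and in 4.65% of all windows. The heat shock element core stood in 9.77% and 8.16%, and in 9.33% of all windows. A match is a description of letters in a window and was not tested.

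Auxin genes were among the largest negative differences. The counts of called genes per list stand beside 0.799% of all tested genes more negative and 0.225% more positive. Aux/IAA proteins repress auxin response factors and are themselves induced by auxin. Of 25 tested Aux/IAA genes, 3 were more negative (IAA19, IAA29 and IAA6) and none more positive, with a list median of −0.20. IAA19 (AT3G15540) stood at 2.37, 2.33 and 1.58 CPM in Col-0 at 21 °C and at 16.7, 26.2 and 21.1 CPM at 27 °C, but in pif457 at 3.82, 2.39 and 2.88 CPM and at 1.99, 3.66 and 1.37 CPM. All Col-0 libraries at 27 °C were higher than any other library, and the pif457 groups overlapped. Its change was 2.79 ± 0.30 in Col-0 and −0.38 ± 0.30 in pif457, an interaction of −3.19 ± 0.43 (adjusted p = 1.98e-05 and 0.000381) that held in all 12 omissions. IAA29 (AT4G32280) stood at 0.93, 1.78 and 1.38 CPM in Col-0 at 21 °C and at 7.56, 11.2 and 12.4 CPM at 27 °C, while all 6 pif457 libraries lay between 0.111 and 0.851 CPM, below every Col-0 library. Its interaction was −2.59 ± 0.41 (adjusted p = 0.000171 and 0.000917) and held in all 12 omissions. IAA6 (AT1G52830) stood at 0 to 0.326 CPM in Col-0 at 21 °C, at 3.09 to 3.79 CPM at 27 °C and at 0 to 0.443 CPM over the pif457 libraries. Its interaction of −1.76 ± 0.45 (adjusted p = 0.0123 and 0.035) held in only 2 of 12 omissions, and the count models did not call it (adjusted p = 0.79 with edgeR and 0.73 with DESeq2). Values for IAA5 (−0.73 ± 0.55, adjusted p = 0.363) and IAA34 (−0.70 ± 0.39, adjusted p = 0.196) did not pass the test.

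SAUR proteins promote cell expansion by activating plasma membrane proton pumps. Of 60 tested SAUR genes, 1 was more negative and none more positive, and the list median was −0.24, with 39 members below and 21 above the median gene. A single call is too few to tell the list from the 0.799% of all tested genes that were more negative. SAUR19 (AT5G18010) stood at 0.511, 0.198 and 0.204 CPM in Col-0 at 21 °C and at 5.09, 4.99 and 4.31 CPM at 27 °C, whereas the pif457 libraries stood at 0.66, 0.239 and 0.189 CPM and at 0.576, 0.629 and 0.185 CPM. The interaction was −2.32 ± 0.42 (adjusted p = 0.000671 and 0.00358) and held in all 12 omissions. The gene lies with its close relatives in a cluster of 6 SAUR genes over 21536 bases of chromosome 5, from 5962773 to 5984308 in TAIR10.1. Its coding sequence of 273 bases is identical to those of SAUR22, SAUR23 and SAUR24 at 91.2, 93.0 and 95.2% of positions, so uniquely mapped reads may have been split or lost among them. SAUR22 rose in Col-0 from between 0.153 and 0.843 CPM to between 3.85 and 5.85 CPM and lay between 0.236 and 0.739 CPM in pif457, an interaction of −1.60 ± 0.46 that passed on CPM as deposited only (adjusted p = 0.0228 and 0.0848). For SAUR20, SAUR23, SAUR24, SAUR27 and SAUR28 the interaction lay between −1.10 ± 0.59 and −0.42 ± 0.38 and was not called. SAUR20 was called higher at 27 °C in both genotypes, by 1.303 ± 0.27 in Col-0 and 0.89 ± 0.27 in pif457.

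The fixed lists of auxin synthesis (11 tested), transport (18) and inactivation genes (11) each held 1 called gene. That is too few to tell a list from the 0.799% of all tested genes that were more negative. YUC8 (AT4G28720), a flavin monooxygenase of the last step of auxin synthesis, stood at 2.74, 1.49 and 1.68 CPM in Col-0 at 21 °C and at 7.52, 11.1 and 10.1 CPM at 27 °C. In pif457 it stood at 2.5, 2.54 and 2.41 CPM at 21 °C and at 2.7, 3.85 and 3.58 CPM at 27 °C, so the temperatures were separate in both genotypes and farther apart in Col-0. Its interaction was −1.42 ± 0.33 (adjusted p = 0.00357 and 0.0258) and the call held in 4 of 12 omissions, with the highest adjusted p, 0.088, without replicate 1 of pif457 at 27 °C. The related YUC9 had an interaction of −0.89 ± 0.43 that was not called (adjusted p = 0.154), and the list of 11 tested synthesis genes had a median of 0.02. WAG2 (AT3G14370), a kinase that phosphorylates PIN auxin carriers, stood at 2.37, 0.744 and 2.9 CPM in Col-0 at 21 °C, at 11.1, 9.59 and 10.6 CPM at 27 °C, and at 0.443 to 2.27 CPM over the pif457 libraries (−2.65 ± 0.53, adjusted p = 0.00235 and 0.00398). Its call held in all 12 omissions. GH3.3 (AT2G23170), which conjugates auxin to amino acids, stood at 3.42 to 5.63 CPM in Col-0 at 21 °C, at 12.8 to 16 CPM at 27 °C and at 3.72 to 8.09 CPM in pif457 (−1.64 ± 0.39, adjusted p = 0.00707 and 0.0203). Its call held in 7 of 12 omissions and was weakest without replicate 3 of pif457 at 21 °C (adjusted p = 0.0813). None of the 19 tested auxin receptors and response factors was called, and their interactions lay between −0.30 and 0.31.

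**Figure D3:**
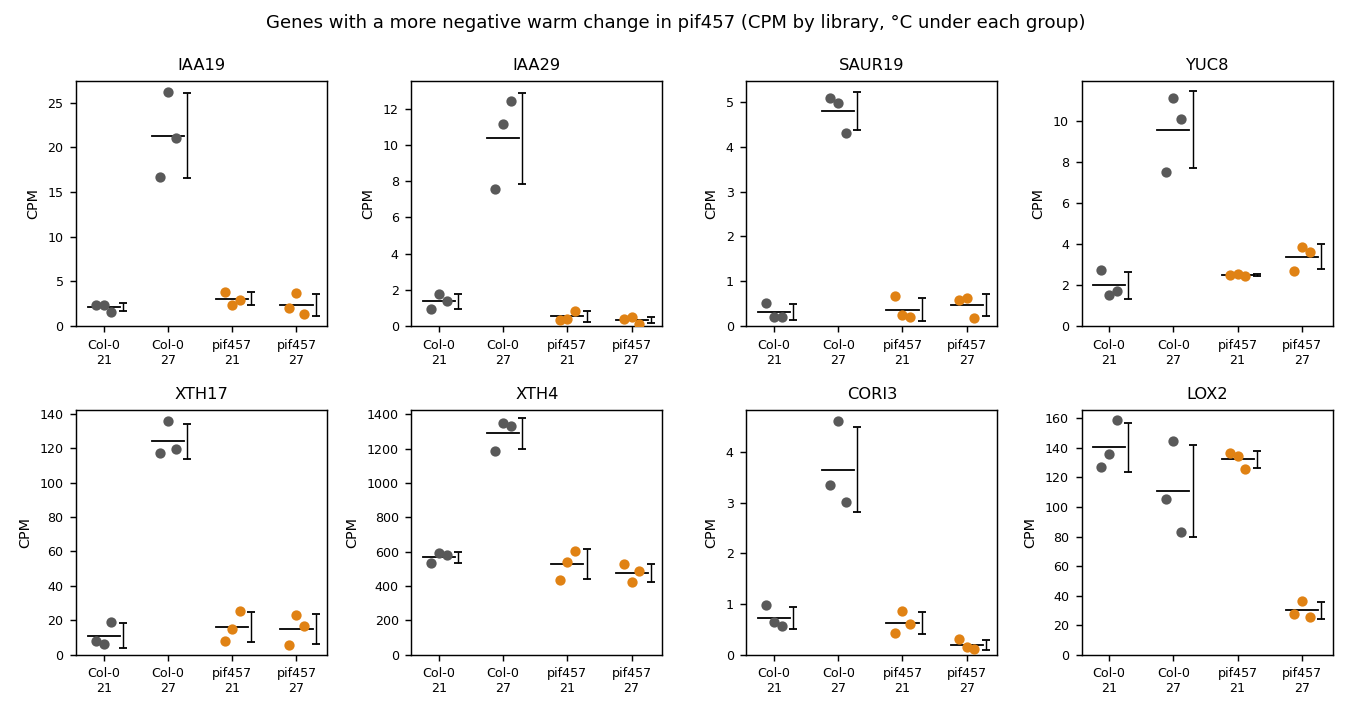
CPM in each of the 3 libraries per group (points), with the group mean (line) and SD (bar beside it), for 8 genes with a more negative warm change in pif457, each axis starting at 0. In 7 of the panels the Col-0 libraries at 27 °C stand above all others, and in LOX2 the pif457 libraries at 27 °C stand below all others.

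Cell wall genes followed. XTH enzymes cut and rejoin xyloglucan chains, which loosens or rebuilds the wall. Of 29 tested members, 2 were more negative and none more positive (median −0.26). XTH17 (AT1G65310) stood at 8.23, 6 and 19.2 CPM in Col-0 at 21 °C and at 117, 136 and 119 CPM at 27 °C, against 7.77, 14.8 and 25.2 CPM and 5.58, 22.8 and 16.9 CPM in pif457. The pif457 temperatures overlapped. The interaction was −3.46 ± 0.81 (adjusted p = 0.0147 and 0.0241), and its call held in 7 of 12 omissions, with the highest adjusted p, 0.0949, without replicate 3 of pif457 at 21 °C. XTH4 (AT2G06850) was far more abundant, at 532, 592 and 579 CPM in Col-0 at 21 °C and 1187, 1349 and 1329 CPM at 27 °C, against 434, 541 and 607 CPM and 527, 422 and 485 CPM in pif457. Its interaction of −1.06 ± 0.21 (adjusted p = 0.000621 and 0.0117) held in all 12 omissions. PME61 (AT3G59010), a pectin methylesterase, stood at 0.306 to 0.697 CPM in Col-0 at 21 °C, at 7.42 to 9.3 CPM at 27 °C, and at 0.295 to 0.66 CPM in pif457, an interaction of −3.06 ± 0.41 (adjusted p = 1.98e-05 and 0.000118). Of 18 tested alpha-expansins, which loosen walls at acid pH, none was called, although 16 lay below the median gene and the list median was −0.57. With the deposited totals 4 of them passed, all more negative, against 2.78% of all tested genes in either direction. None of these 4 passed after scaling. With both scalings 1.02% of all tested genes were called, so no call among 18 is near that share.

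Several of the largest differences were in single genes outside the lists. The fatty acid reductase gene AT5G22500, whose family makes fatty alcohols for suberin, stood at 4.79, 3.62 and 3.46 CPM in Col-0 at 21 °C and at 49.9, 49 and 49.4 CPM at 27 °C. In pif457 it stood at 5.61, 4.21 and 7.47 CPM and at 8.24, 7.39 and 8.2 CPM. Its change was 3.23 ± 0.25 in Col-0 and 0.45 ± 0.25 in pif457, an interaction of −2.78 ± 0.35 (adjusted p = 1.46e-05 and 3.58e-05) that held in all 12 omissions. The uncharacterized AT5G22505 lies within it on the opposite strand (−2.96 ± 0.44), and without stated strandedness reads of the pair cannot be told apart. AT5G44440, a berberine bridge enzyme-like oxidase, had the most negative interaction of all genes called (−3.75 ± 0.67, adjusted p = 0.00181 and 0.00917). It stood at 2.28, 4.91 and 0.662 CPM in Col-0 at 21 °C, at 25.4, 63.3 and 38.8 CPM at 27 °C and at 0.378 to 1.18 CPM over the pif457 libraries. Of the count models, DESeq2 called it (adjusted p = 0.00126) and edgeR did not (adjusted p = 0.0734). The list of the 10 most negative genes with a group mean of at least 5 CPM also held the glycosyltransferase gene AT5G37950, the tetratricopeptide gene AT1G80130 (−2.91 ± 0.67) and the peroxidase gene AT1G49570 (−2.71 ± 0.68). The last held its call in 4 omissions and AT1G80130 in 7, with adjusted p up to 0.121 and 0.0772. Neither was called by the count models. The adjusted p was 0.0897 with edgeR and 0.0727 with DESeq2 for AT1G49570, and 0.102 and 0.0592 for AT1G80130. AT5G37950 had no read in any of the 6 pif457 libraries and rose in Col-0 from between 0.0465 and 0.297 CPM to between 5.56 and 6.64 CPM. In libraries of this depth 3 reads are 0.111 to 0.153 CPM, which a count of 0 allows. The fitted interaction (−3.02 ± 0.50, adjusted p = 0.000336 and 0.000855) depends on the pseudocount, and the count models did not call the gene (adjusted p = 1 with edgeR and 0.15 with DESeq2). NUDT24, a nudix hydrolase gene singled out after its values were seen, likewise had no read in pif457 and 1.71, 2.97 and 1.53 CPM in Col-0 at 27 °C.

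Other lists of growth regulators held 1 called gene or none. Of 23 tested shade genes and growth bHLH factors, 20 lay below the median gene (median −0.48). With the deposited totals 5 of them passed, all more negative, against 2.78% of all tested genes in either direction. With both scalings 1 was called, beside 0.799% of all tested genes that were more negative. That gene was PRE2 (AT5G15160), a small HLH protein that promotes elongation, with 0.233 to 1.32 CPM in Col-0 at 21 °C, 2.88 to 3.9 CPM at 27 °C, and in pif457 1.15 to 1.32 CPM and 0.443 to 1.02 CPM. Its interaction of −1.97 ± 0.55 (adjusted p = 0.0222 and 0.0471) held in 1 of 12 omissions only and reached an adjusted p of 0.145 without replicate 3 of pif457 at 27 °C. In the list, 14 genes were called higher at 27 °C in Col-0 and 3 in pif457. Among 18 gibberellin genes, RGL1 (AT1G66350), a DELLA repressor of growth, was more negative. It stood at 8.97, 9.07 and 9.83 CPM in Col-0 at 21 °C and at 20.9, 21.7 and 21.4 CPM at 27 °C, but at 7.25, 8.09 and 8.13 CPM and at 6.51, 6.53 and 6.72 CPM in pif457. The temperatures were separate in both genotypes and in opposite order. The interaction was −1.13 ± 0.26 (adjusted p = 0.00242 and 0.0189) and held in all 12 omissions. With 1 call the gibberellin list cannot be told from the 0.799% of all tested genes that were more negative. None of the 17 brassinosteroid genes or of the 13 cytokinin oxidases and response regulators was called.

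Jasmonate is a wound and defence hormone made from plastid lipids. Its genes formed the list with the most called members on the negative side, 4 of 27 tested, with 20 members below the median gene and a median of −0.41. LOX2 (AT3G45140), the chloroplast lipoxygenase at the head of jasmonate synthesis, stood at 127, 136 and 159 CPM in Col-0 at 21 °C and at 105, 145 and 82.8 CPM at 27 °C. In pif457 it stood at 136, 134 and 126 CPM at 21 °C and at 27.7, 36.4 and 25.9 CPM at 27 °C, a fall of −2.14 ± 0.17 (adjusted p = 5.57e-10 in limma). The genotypes overlapped at 21 °C and did not at 27 °C. The interaction was −1.51 ± 0.23 (adjusted p = 5.96e-05 and 0.000683). OPR3 (AT2G06050), a later enzyme of the pathway, stood at 13.3, 13.7 and 14 CPM and 23.3, 22.7 and 21.3 CPM in Col-0, and at 15.5, 12.4 and 16.4 CPM and 9.61, 11.2 and 11.2 CPM in pif457. It rose in Col-0 and fell in pif457 (−0.88 ± 0.21, adjusted p = 0.00187 and 0.0189). Its call held in 10 of 12 omissions. The jasmonate-induced genes CORI3 (AT4G23600), a cystine lyase, and VSP2 (AT5G24770), a vegetative storage protein, rose in Col-0. CORI3 went from between 0.56 and 0.976 CPM to between 3.01 and 4.6 CPM in Col-0, and in pif457 from between 0.424 and 0.862 CPM to between 0.111 and 0.31 CPM (−2.20 ± 0.40, adjusted p = 0.000675 and 0.00403). VSP2 stood at 2.14 to 3.32 CPM in Col-0 at 21 °C, at 14.9, 31.8 and 15.2 CPM at 27 °C and at 2.25 to 4.52 CPM in pif457 (−2.08 ± 0.44, adjusted p = 0.00315 and 0.0193), with the call lost without replicate 2 of Col-0 at 27 °C (adjusted p = 0.0752) and in 3 other omissions.

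Some genes moved in opposite directions in the 2 genotypes. By the rule for such genes, UGT74E2 (AT1G05680), which glucosylates the auxin precursor indole-3-butyric acid, came first. It stood at 2.6, 2.93 and 2.96 CPM in Col-0 at 21 °C and at 11.6, 5.99 and 10.8 CPM at 27 °C, and in pif457 at 5.32, 3.69 and 7.71 CPM and at 1.55, 1.34 and 3.29 CPM. It rose in Col-0 (1.26 ± 0.32) and fell in pif457 (−1.28 ± 0.32), and the interaction was −2.55 ± 0.46 (adjusted p = 0.000661 and 0.00214). The neighbouring genes AT1G47395 and AT1G47400, uncharacterized in the annotation and 1876 bases apart on chromosome 1, came next. AT1G47395 stood at 2.23, 2.48 and 3.57 CPM and at 9.48, 9.49 and 9.83 CPM in Col-0, and at 6.64, 3.4 and 3.26 CPM and 1.51, 2.71 and 1.29 CPM in pif457 (−2.46 ± 0.51, adjusted p = 0.00279 and 0.00627). AT1G47400 gave −2.05 ± 0.45. Their start regions share an unbroken run of 28 bases around a PBE-box. All 3 genes held their call in every omission.

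In the genome, 12 pairs of neighbours within 5000 bases of each other were both called, 6 of them overlapping. The pair CIPK20 and DOG1 on chromosome 5, 625 bases apart and on the same strand, was more positive in both genes, and AT5G67020 with ABA1 was the pair that differed in sign. In the overlapping pair AT4G22495 and AT4G22505 all values were identical, so they count as 1 signal. Of the 174 more negative genes 24 overlap another tested gene, and of the 49 more positive ones 17 do, against 32.8% of all tested genes that could be placed.

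On the positive side, single regulators showed the largest differences. CIPK20 (AT5G45820), a calcium sensor-interacting protein kinase, stood at 11.9, 8.63 and 9.32 CPM in Col-0 at 21 °C, at 19, 17.55 and 18.6 CPM at 27 °C, and in pif457 at 12.2, 8.71 and 6.62 CPM and at 83.5, 80.8 and 76.7 CPM. The genotypes overlapped at 21 °C and were far apart at 27 °C. Its change of 3.09 ± 0.25 in pif457 against 0.59 ± 0.25 in Col-0 gave an interaction of 2.49 ± 0.35 (adjusted p = 0.000531 and 0.000381). MYBL2 (AT1G71030), a repressor of anthocyanin synthesis, stood at 6.62 to 10.7 CPM in Col-0 at 21 °C, at 11.1 to 13.8 CPM at 27 °C, and in pif457 at 6.2 to 8.06 CPM and at 50.7, 41.9 and 44.5 CPM (2.29 ± 0.33, adjusted p = 0.000706 and 0.00182). Both calls held in all 12 omissions. In the same list of 19 flavonoid genes, MYB111 (AT5G49330), an activator of flavonol synthesis, was more negative (−1.24 ± 0.34, adjusted p = 0.0146 and 0.0413). In Col-0 it stood at 2.48 to 3.26 CPM at 21 °C and lower, at 1.58 to 1.88 CPM, at 27 °C (−0.82 ± 0.24, not called). In pif457 it fell from between 5.84 and 6.48 CPM to between 1.06 and 1.18 CPM. The pif457 libraries were thus above every Col-0 library at 21 °C and below every one at 27 °C. The MYB111 call held in 1 of 12 omissions and reached an adjusted p of 0.111 without replicate 3 of pif457 at 21 °C. The list median was −0.38. CDF1 (AT5G62430), a DOF factor that delays flowering, stood at 5.35 to 10.1 CPM and at 9.13 to 12.2 CPM in Col-0, and at 5.13 to 7.47 CPM and at 20.2 to 29.4 CPM in pif457 (1.66 ± 0.29, adjusted p = 0.00615 and 0.00214, held in all 12 omissions). The uncharacterized AT3G12320, whose start region is shown above, stood at 8.86 to 14.7 CPM and at 21.9 to 26.6 CPM in Col-0, and at 5.65 to 10.4 CPM and at 37.7 to 45 CPM in pif457. Its interaction of 1.66 ± 0.35 held in 4 omissions only, and AT3G62950 (1.71 ± 0.37), AT1G13650 (1.71 ± 0.41) and AT4G36850 (1.67 ± 0.32) held theirs in 7, 4 and 4.

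DOG1 (AT5G45830), which controls seed dormancy, stood at 1.17 to 1.39 CPM in Col-0 at 21 °C, at 2.37 to 2.97 CPM at 27 °C, and in pif457 at 0.284 to 0.67 CPM and at 6.91, 3.77 and 6.09 CPM (2.09 ± 0.45, adjusted p = 0.0219 and 0.0213). Its call held in 7 of 12 omissions, with the highest adjusted p, 0.0841, without replicate 3 of pif457 at 21 °C. Seed storage and embryo markers moved the same way. All 10 tested of them lay above the median gene in the interaction (median 1.28) and none was called. The 13 markers in the table, all with reads, summed to 7.69 to 9.16 CPM in Col-0 at 21 °C, to 20.6 to 34.6 CPM at 27 °C, and in pif457 to 1.51 to 10.7 CPM and 31.8 to 69.2 CPM. The part of this in the DOG1 result was not tested.

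**Figure D4:**
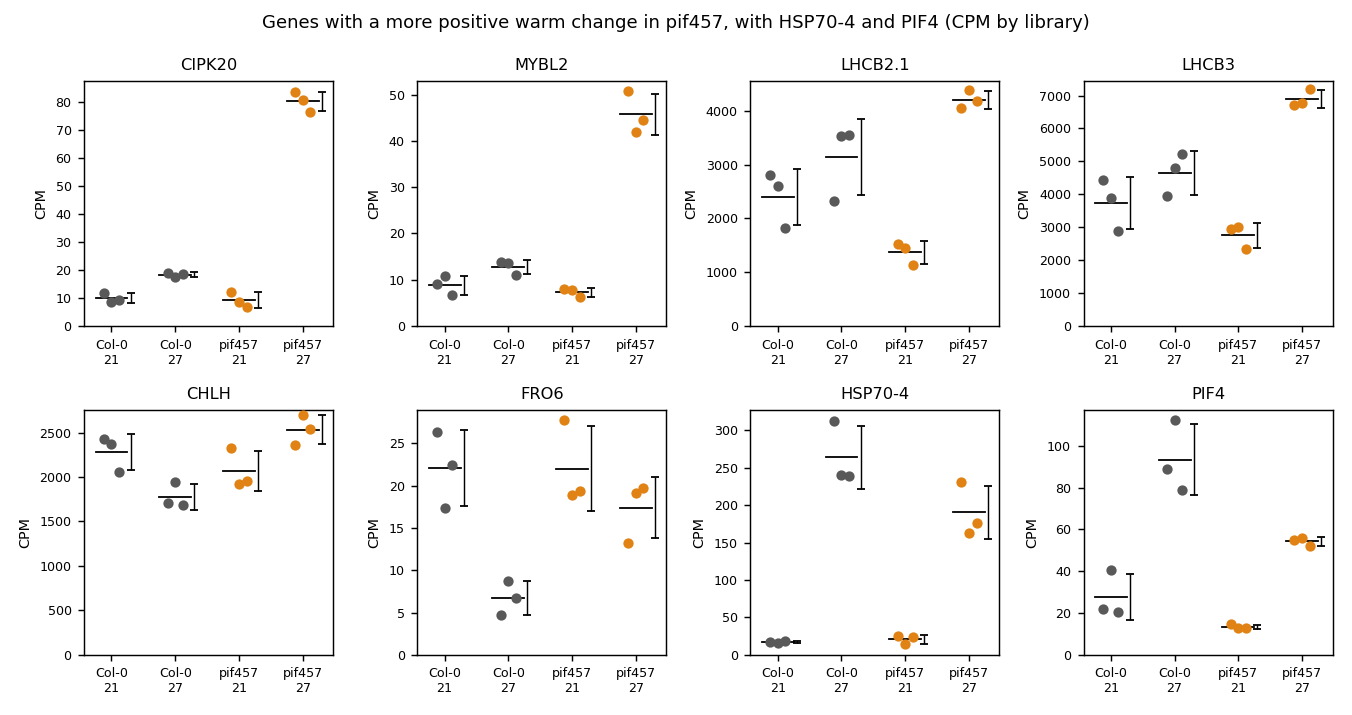
CPM in each of the 3 libraries per group (points), with the group mean (line) and SD (bar beside it), for 6 genes with a more positive warm change in pif457 and, for comparison, HSP70-4 and PIF4, each axis starting at 0. CIPK20 and MYBL2 are high in the pif457 libraries at 27 °C, FRO6 is low in the Col-0 libraries at 27 °C, and HSP70-4 is high at 27 °C in both genotypes.

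Light-harvesting genes were the list with the most called members on the positive side. Their proteins bind chlorophyll and pass light energy to the photosystems. Of 21 tested genes, 20 lay above the median gene (median 0.85), 5 were more positive and none more negative. The list's median change was −0.11 in Col-0 and 0.84 in pif457. LHCB2.2 (AT2G05070) stood at 2416, 2148 and 1416 CPM in Col-0 at 21 °C and at 2076, 3228 and 3131 CPM at 27 °C, with overlap, and in pif457 at 1165, 1104 and 775 CPM and at 3290, 3754 and 3380 CPM. The pif457 libraries were thus below every Col-0 library at 21 °C and above every one at 27 °C. The interaction was 1.55 ± 0.30 (adjusted p = 0.018 and 0.0354). LHCB2.1 (AT2G05100) gave 1.504 ± 0.26, from between 1132 and 1531 CPM to between 4057 and 4397 CPM in pif457 and from between 1819 and 2805 CPM to between 2322 and 3557 CPM in Col-0. LHCA4 (AT3G47470), of photosystem I, gave 1.28 ± 0.22 and LHCB3 (AT5G54270) 1.26 ± 0.20. The remaining called member, LHCB5 (AT4G10340), falls outside the naming rule and gave 0.84 ± 0.15. The calls of LHCB2.2, LHCB2.1, LHCA4, LHCB3 and LHCB5 held in 4, 7, 5, 7 and 3 of 12 omissions in the order named, and each was weakest without replicate 3 of pif457 at 21 °C, with adjusted p of 0.141, 0.0871, 0.108, 0.0794 and 0.151.

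The other photosynthesis lists lay on the same side with smaller values. All 18 tested photosystem and Rubisco subunit genes lay above the median gene (median 0.55), of which PSAF (AT1G31330), the plastocyanin-docking subunit of photosystem I, was called. It stood at 3317 to 4162 CPM and at 2598 to 2926 CPM in Col-0, and at 2398 to 3055 CPM and at 3283 to 3598 CPM in pif457 (1.03 ± 0.21, adjusted p = 0.0445 and 0.039), and its call held in 2 omissions. With 1 call the photosystem and Rubisco list cannot be told from the 0.225% of all tested genes that were more positive. Of 16 chlorophyll synthesis genes, 14 lay above the median gene and 3 were more positive. CHLH (AT5G13630), the large subunit of magnesium chelatase, stood at 2425, 2376 and 2051 CPM and at 1702, 1946 and 1682 CPM in Col-0, and at 2322, 1925 and 1952 CPM and at 2364, 2697 and 2542 CPM in pif457 (0.91 ± 0.17, adjusted p = 0.0288 and 0.0214). CRD1 (AT3G56940), of the ring-closing cyclase, gave 0.86 ± 0.15 and overlaps the called gene AT3G08795, and AT1G44446, which makes chlorophyll b, gave 1.01 ± 0.17. CHLH and CRD1 fell in Col-0, with changes of −0.63 ± 0.12 and −0.72 ± 0.10, and their calls in the interaction held in 4 and 8 omissions, with adjusted p up to 0.0973 and 0.0739, while that of AT1G44446 held in 9. The lower share of chloroplast reads in pif457 stood beside these results. When libraries were scaled by nuclear totals without the 50 most abundant genes, all 46 named genes that were called in the interaction kept their direction and their call. These genes had been picked for passing the other 2 scalings, and the nuclear scaling lay between those. The median gene moved in the interaction by −0.25 with deposited totals, −0.09 with nuclear totals and −0.0075 after median-of-ratios scaling. Keeping the calls was thus close to given, and the part of the chloroplast share in them was not tested.

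The lists of clock genes (27 tested) and light-signalling genes (24 tested) gave 1 call each with both scalings. That is too few to tell a list from the 0.225% of all tested genes that were more positive. RVE1 (AT5G17300), a MYB factor that links the clock to auxin, fell in Col-0 from 34, 40.1 and 37.3 CPM to 21.6, 22.1 and 27.2 CPM, and stood in pif457 at 45.9, 40.9 and 36.9 CPM and at 49.8, 40.1 and 48.3 CPM (1.05 ± 0.21, adjusted p = 0.0341 and 0.00996). Of 27 clock genes 21 lay above the median gene (median 0.40). BBX24 (AT1G06040), a B-box factor of light signalling, rose in both genotypes, from 88.8 to 98.3 CPM to between 168 and 194 CPM in Col-0 and from 70.8 to 79.5 CPM to between 218 and 234 CPM in pif457 (0.86 ± 0.16, adjusted p = 0.0353 and 0.00807). The calls of RVE1 and BBX24 held in 5 and 4 omissions, with adjusted p up to 0.123 and 0.112. BBX24 overlaps the tested gene AT1G06045, with a mean of 62 CPM over the 12 libraries, and RVE1 overlaps AT5G17305, with 5.11 CPM. Without stated strandedness, reads in these overlaps cannot be told apart.

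**Figure D5:**
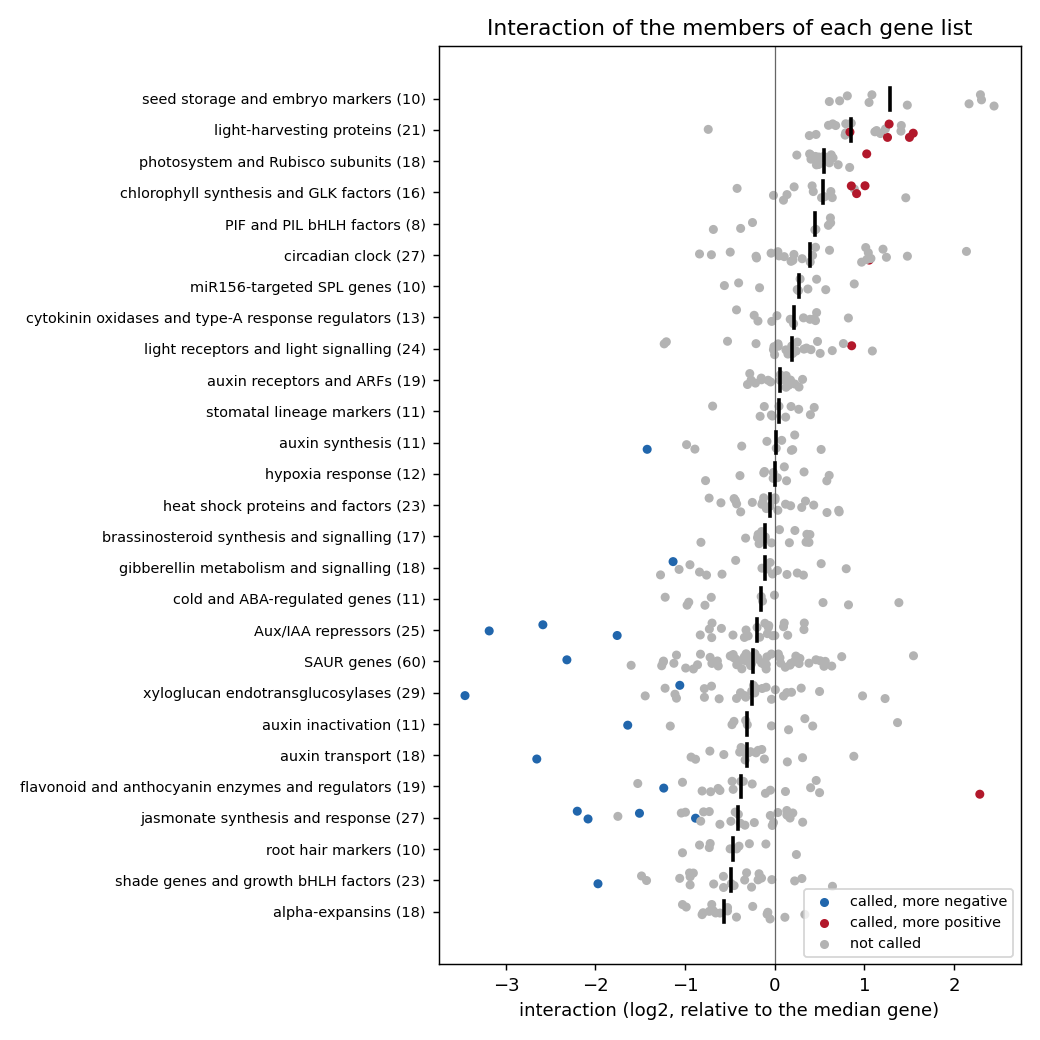
Interaction of each tested member (points, log2 relative to the median gene) of 27 gene lists, ordered by the list median (black bar), with the number of members in brackets and called members in blue (more negative) or red (more positive). Light-harvesting and chlorophyll genes lie to the right with red members, the blue members lie in the auxin, jasmonate, XTH, shade, gibberellin and flavonoid lists, and heat shock genes centre on −0.05 with none called.

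Several lists held no gene called in the interaction. Only 1.02% of all tested genes were called, so no call in lists of 10 to 23 genes is near that share. Heat shock proteins are chaperones induced by heat shock factors. Of 23 tested, none was called in the interaction, and the list median was −0.05, with median changes of 1.69 in Col-0 and 1.38 in pif457. In Col-0 18 of them were called higher at 27 °C and in pif457 17. HSP70-4 (AT3G12580) stood at 17.1, 15.6 and 18.8 CPM and at 312, 240 and 239 CPM in Col-0, and at 24.4, 13.9 and 23.4 CPM and at 231, 163 and 177 CPM in pif457. The interaction was −0.44 ± 0.28, with an interval at 95% from −1.005 to 0.13. HSP90.1 (AT5G52640) gave −0.45 ± 0.35 (−1.18 to 0.27) and the small heat shock protein HSP23.5 (AT5G51440) −0.73 ± 0.44 (−1.62 to 0.16). Of 10 miR156-targeted SPL genes none was called. The interaction was 0.25 ± 0.21 for SPL2 (AT5G43270), 0.47 ± 0.40 for SPL3 and 0.27 ± 0.23 for SPL10. The 12 hypoxia genes and the 11 cold and ABA-regulated genes likewise had no call.

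A last group was chosen after the values were seen, namely the 10 most abundant of the 73 genes that stayed called in every omission. LTP2 (AT2G38530), a lipid transfer protein of the cuticle, stood at 82.2, 79.7 and 68 CPM in Col-0 at 21 °C and at 437, 471 and 492 CPM at 27 °C, and in pif457 at 48.3, 49.7 and 64.1 CPM and at 79.9, 59.6 and 72.3 CPM. Its interaction of −1.97 ± 0.22 had adjusted p of 6.78e-07 and 6.46e-05. NIT1 (AT3G44310), a nitrilase, stood at 421 to 515 CPM and at 645 to 715 CPM in Col-0 and at 518 to 535 CPM and at 304 to 341 CPM in pif457 (−1.03 ± 0.15). WAT1 (AT1G75500), a vacuolar auxin transporter needed for secondary walls, stood at 139 to 176 CPM and at 300.5 to 341 CPM in Col-0 and at 106 to 145 CPM over all pif457 libraries (−0.95 ± 0.20). NSP1 (AT3G16400), which directs glucosinolate breakdown to nitriles, stood at 320 to 349 CPM and at 740 to 872 CPM in Col-0 and at 345 to 427 CPM over all pif457 libraries (−0.95 ± 0.15). The lectin-like genes JR1 (−0.81 ± 0.14) and JAL22 (−1.20 ± 0.22), MLP43 (−0.99 ± 0.20), XTH4 and LOX2 were the other negative members. The 1 positive member was HDR (AT4G34350), the last enzyme of the plastid isoprenoid pathway, at 208 to 250 CPM and 201 to 229 CPM in Col-0 and at 197 to 266 CPM and 364 to 418 CPM in pif457 (1.15 ± 0.17, adjusted p = 0.00299 and 0.001). FRO6 (AT5G49730), a ferric reductase singled out likewise, fell in Col-0 from 26.4, 17.41 and 22.5 CPM to 4.72, 8.77 and 6.68 CPM, against 18.9 to 27.8 CPM and 13.2 to 19.7 CPM in pif457 (1.59 ± 0.27).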

How the data were processed

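Poly(A) RNA of 30 seedling samples was sequenced, and 12 libraries of Col-0 and pif457 entered the comparisons. Per the study's methods the authors aligned reads with STAR 2.7.7a, counted unique reads on Araport11 genes with featureCounts 2.0.1 and tested with DESeq2 1.35.0. The sources used here state no strandedness. The deposited values were named FPKM, but every library had nearly the same total (999904 to 999960) and 100% of values were whole multiples of 1 read (tolerance 0.001 reads), so they were treated as CPM deposited by the authors, and whole reads were recovered from them for edgeR 4.0.16 and DESeq2 1.42.0 as alternatives.

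Genes with at least 1 CPM in 3 libraries were fitted as log2(CPM + 0.5) in limma 3.58.1 (R 4.3.3; trend, robust) over all groups, with Benjamini-Hochberg adjustment. Of 25300 genes, 25076 matched RefSeq TAIR10.1 by locus, and coordinates and start regions are from there. The table itself gives none.

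Members and gene lists were chosen with earlier results of these data known. Named genes were PIF4, PIF5 and PIF7, 13 auxin genes of the study, up to 4 called members per list, the 10 largest called changes each way at 5 CPM or more, 3 heat and 3 SPL genes, and 3 genes of opposite direction. The counts called with both scalings, and their alternatives, were added after seeing the data. The 95% intervals are from the limma fit and cover the spread among samples, while floors cover counting error only.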

Additional observations from a re-analysis of the deposited data

Results flagged for a closer look

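The interaction separated 174 more negative and 49 more positive genes, called with both scalings. For 10 of the named ones the 2 temperatures did not overlap in either genotype and stood in opposite order. The interaction tests whether the 2 changes differ, and not the direction of each. Of these genes OPR3, UGT74E2, AT1G47395 and AT1G47400 were called in opposite directions in the 2 genotypes. For PRE2, RGL1, CORI3, PSAF, CHLH and CRD1 the change in pif457 was not called. The relative interaction was −1.97 for PRE2, −1.13 for RGL1, −2.20 for CORI3, −0.88 for OPR3, −2.55 for UGT74E2, −2.46 for AT1G47395 and −2.05 for AT1G47400. It was 1.03 for PSAF, 0.91 for CHLH and 0.86 for CRD1. Groups of 3 libraries were too small for a test of single outlying libraries.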

How the results depend on the processing

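With the deposited totals 606 genes were called. The count was 297 with median-of-ratios scaling, 315 with nuclear totals and 265 with edgeR. The 53 more positive genes became 123, 89 and 122 under these, and 254 with DESeq2, and the 553 more negative ones became 174, 226 and 143, and 265 with DESeq2. The share of more positive calls went from 8.75% to 41.4% with scaling, and that of genes higher at 27 °C in Col-0 from 84.4% to 46.9%. The Col-0 count of 6466 was 3968 with scaling and 3891 with edgeR. With the replicate number as a block the counts were 1115 (98 more positive, 1017 more negative), and 97 and 289 with both scalings. Same-numbered libraries correlated in their deviations by −0.08 to 0.55, over 0.1 in 15 of 18 pairs, and 32 of 36 best matches had the own number, a hint from the data of a shared structure by number. The labels name no shared batch or day, and not every pair was over 0.1, so the block was kept as an alternative. With it SAUR22 was called under both scalings (adjusted p = 0.00826 and 0.0367 in limma), and no other named gene changed its call. Leaving out 1 library gave 240 to 1294 genes, 17 to 81 more positive and 223 to 1213 more negative, and with both scalings 12 to 81 and 90 to 204. It gave 4543 to 6822 for Col-0 and 2231 to 3509 for pif457. Of the 46 named called genes, 8 were not called with edgeR, 7 with a pseudocount of 0.1, 5 without limma's trend and robust options, 4 with DESeq2, 4 with the compared groups only and 1 without a filter. None changed direction under an alternative in which it was tested. IAA6 and CORI3 were not among the 44 tested at a minimum of 5 CPM. The cause of these shifts was not tested. Genes near 3 reads (0.111 to 0.153 CPM) are limited by depth.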
